A study of Mus musculus with 6 samples.

Results

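The cell cycle gene set described here held 40 genes, listed by name as known markers of S phase or of G2 and mitosis, a list that was made with earlier results of these data known. All 40 were found among the 24077 genes of the single-cell table and the 30828 genes of the spatial tables. For description they were divided into 24 G2/M genes, 15 S genes and Stmn1, which codes for a microtubule-destabilizing protein abundant in proliferating cells and was kept apart from both groups.

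Cells that enter the cycle first load the MCM helicase onto origins of replication, build up deoxynucleotides and copy their DNA in S phase. Cyclin-dependent kinase 1 with cyclin B then drives mitosis, in which spindle motors and kinetochore proteins separate the chromosomes, and the anaphase-promoting complex ends it by degrading the cyclins. S phase transcripts are mostly controlled by E2F factors and G2/M transcripts by the MuvB complex with B-MYB and FOXM1. In the rodent uterus, epithelial proliferation follows the estrous cycle and is driven by estrogen, acting in large part through the stroma.

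The study asked how exposure to diethylstilbestrol (DES), a synthetic estrogen, during the first days of life changes the cells of the adult uterus. Female CD-1 mice received corn oil (CO) or DES at 1 mg/kg/day in corn oil on days 1 to 5 after birth, and uteri were taken at 12 months, when many DES mice carry uterine adenocarcinoma. CO mice were chosen in estrus because DES mice at this age are in persistent estrus. Single cells freed with trypsin came from 2 pooled CO mice and from 4 pooled DES mice, 1 library each, and spatial RNA from 4 sections of 1 mouse each, CO A and CO B in the CO group and DES A and DES B in the DES group, all on 1 slide and cored to areas of interest.

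S and G2/M genes are known for different promoter motifs, and the sequences around their start sites are shown because S and G2/M genes differed in opposite directions between the epithelia of the 2 libraries. RefSeq promoters on GRCm38.p6, from 250 bases before to 50 after the start, were held for 31 of the 40 genes. TTTGAA, the cell cycle genes homology region, was present on either strand in 14 of 19 G2/M promoters and 2 of 12 S promoters, against 17.9% of all 32851 promoters. In Aurka, Bub1b, Cenpa, Cenpf, Hmmr, Kif23 and Plk1 it was found only after the start. CCAAT occurred in 17 of 19 G2/M and 9 of 12 S promoters, against 37.4% of all. TTCGAA, a variant of the first motif, occurred in 3 of 19 G2/M and 1 of 12 S promoters, against 1.56% of all. Of the E2F motif, TTTCCCGC occurred in 0 of 19 G2/M and 3 of 12 S promoters (1.07% of all), and TTTGGCGC also in 0 of 19 and 3 of 12 (0.514% of all). Either E2F form was found in 5 S promoters (Cdc6, Mcm3, Mcm5, Mcm6 and Mcm7). No motif contains another, and a match is a description and not evidence of a bound factor. The promoters of 3 G2/M and 3 S genes are printed from 180 bases before to 25 after the start, 5′ to 3′ on the strand of the gene, with the motifs other than CCAAT in capitals, read on either strand. Top2a lies at chr11:99024165-99024369 (minus strand), Hmmr at chr11:40733413-40733617 (minus), Cenpa at chr5:30666706-30666910 (plus), Mcm5 at chr8:75109329-75109533 (plus), Mcm6 at chr1:128359681-128359885 (minus) and Mcm7 at chr5:138171859-138172063 (minus).
Top2a: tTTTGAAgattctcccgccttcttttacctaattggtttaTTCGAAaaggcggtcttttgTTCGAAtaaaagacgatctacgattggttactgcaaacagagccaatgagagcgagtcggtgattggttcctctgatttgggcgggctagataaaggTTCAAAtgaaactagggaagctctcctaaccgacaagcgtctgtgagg
Hmmr: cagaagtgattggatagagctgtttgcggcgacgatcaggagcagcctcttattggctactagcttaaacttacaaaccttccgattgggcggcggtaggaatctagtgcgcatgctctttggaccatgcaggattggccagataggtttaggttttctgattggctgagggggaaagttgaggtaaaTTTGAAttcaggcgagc
Cenpa: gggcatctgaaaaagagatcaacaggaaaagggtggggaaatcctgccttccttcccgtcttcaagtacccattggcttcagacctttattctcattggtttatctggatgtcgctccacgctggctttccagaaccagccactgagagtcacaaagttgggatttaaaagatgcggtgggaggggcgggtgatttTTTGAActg
Mcm5: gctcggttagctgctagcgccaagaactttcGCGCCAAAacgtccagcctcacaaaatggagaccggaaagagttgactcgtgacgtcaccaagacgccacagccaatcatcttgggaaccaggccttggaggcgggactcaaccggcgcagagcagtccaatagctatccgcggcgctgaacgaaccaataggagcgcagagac
Mcm6: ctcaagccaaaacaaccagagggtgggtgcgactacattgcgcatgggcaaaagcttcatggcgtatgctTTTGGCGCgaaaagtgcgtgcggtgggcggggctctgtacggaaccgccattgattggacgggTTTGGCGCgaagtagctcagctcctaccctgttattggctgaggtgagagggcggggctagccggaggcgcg
Mcm7: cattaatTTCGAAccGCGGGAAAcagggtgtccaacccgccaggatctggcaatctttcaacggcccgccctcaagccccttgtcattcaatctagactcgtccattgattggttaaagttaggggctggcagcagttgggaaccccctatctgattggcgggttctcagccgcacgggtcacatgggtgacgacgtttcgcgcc

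The CO library held 32387 cells and the DES library 16312 cells, and the sections held between 9117099 and 12506177 unique molecular identifiers (UMIs), each UMI standing for 1 captured transcript. Of the cells, 180 barcodes occurred in both libraries, and without them the G2/M and S ratios given here were 0.707 and 1.76. Stromal cells made up 1326 CO cells but 1 DES cell, so that stroma was compared only in the sections. Levels are UMIs of a gene or group summed over cells or spots per 1000000 UMIs of those cells or spots (CPM), with exact Poisson 95% intervals for counting error alone. Each condition had a single library of cells, so differences between the libraries were not tested.

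A cell was called cycling when it held at least 3 UMIs of the 24 G2/M genes after thinning to 3000 UMIs, and S-like when it held fewer than 3 of these but at least 3 UMIs of the 15 S genes. Among CO epithelial cells 224 of 2562 were called cycling (8.74%, exact binomial 95% interval 7.68 to 9.90). In the DES library the non-basal epithelium, that is the cells of the authors' 16 DES epithelial clusters, gave 258 of 4559 (5.66%, 5.01 to 6.37). The DES share was therefore the lower of the 2, beyond counting error. The same order held for at least 1 UMI of Top2a or Mki67, at 8.12% in CO (7.09 to 9.24) and 6.25% in DES (5.57 to 6.99). A single UMI can come from free RNA, and the same measure gave 1.49% of CO and 0.873% of DES mesothelial cells, at lower depths before thinning (medians 10582 and 12520 UMIs). Without thinning the shares were 32.6% and 21.4%, at median depths of 23458 and 24663.5 UMIs. The call is a cut through a continuous range, with 80 CO and 113 DES cells at 2 UMIs and 50 CO and 49 DES cells at exactly 3. Cycling cells were deeper than the rest, with a median of 35113 UMIs in CO and 48123.5 in DES against 23095.5 and 23936 in the other epithelial cells.

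Few stromal and mesothelial cells were called cycling. No CO stromal cell was (0 of 1303, where 3 cells, taken as the limit that a count of 0 allows, would be 0.230% and the exact interval reaches 0.283%). The mesothelium, the outer lining of the uterus, gave 14 of 6718 CO cells (0.208%) and 1 of 3782 DES cells (0.0264%). Median depth in thinned cells was 8792 UMIs in CO stroma and 10582 and 12520 in CO and DES mesothelium. Summed G2/M levels of 45.0 CPM in CO stroma and of 40.8 and 22.0 CPM in the mesothelia thus came with almost no cell past the call. Myeloid cells gave 15 of 67 in CO (22.4%, 13.1 to 34.2) and 14 of 218 in DES (6.42%, 3.56 to 10.5), and lymphocytes 19 of 310 in CO (6.13%) and 4 of 213 in DES (1.88%, 0.514 to 4.74). A second myeloid type that the authors named DES-Myeloid-Lyz2hi, left out of these shares, gave 2 of 131 DES cells (1.53%, 0.185 to 5.41). The CO myeloid cells also held Upk3b at 222 CPM, against 12.7 CPM in the DES myeloid cells, and its part in the difference was not tested. Cells without a cell type from the authors gave 431 of 14756 in CO (2.92%) and 62 of 2684 in DES (2.31%). Endothelial cells of the CO library gave 7 of 322 (2.17%), while the DES library held 5 endothelial cells. All 22 cells that the authors named Stmn1-hi, found in the CO library alone, were called cycling. Their G2/M level was 5149 CPM and their Stmn1 level 1363 CPM, and they held the mesothelial markers Upk3b at 763 CPM and Msln at 564 CPM, against 19.8 and 14.2 CPM in CO epithelium. The other mesothelial markers, Lrrn4 and Wt1, stood at 378 and 222 CPM in them, and the CO mesothelial share leaves these cells out. The authors named these cells by a gene of the set, so the level of Stmn1 describes them and supports nothing.

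**Figure D1:**
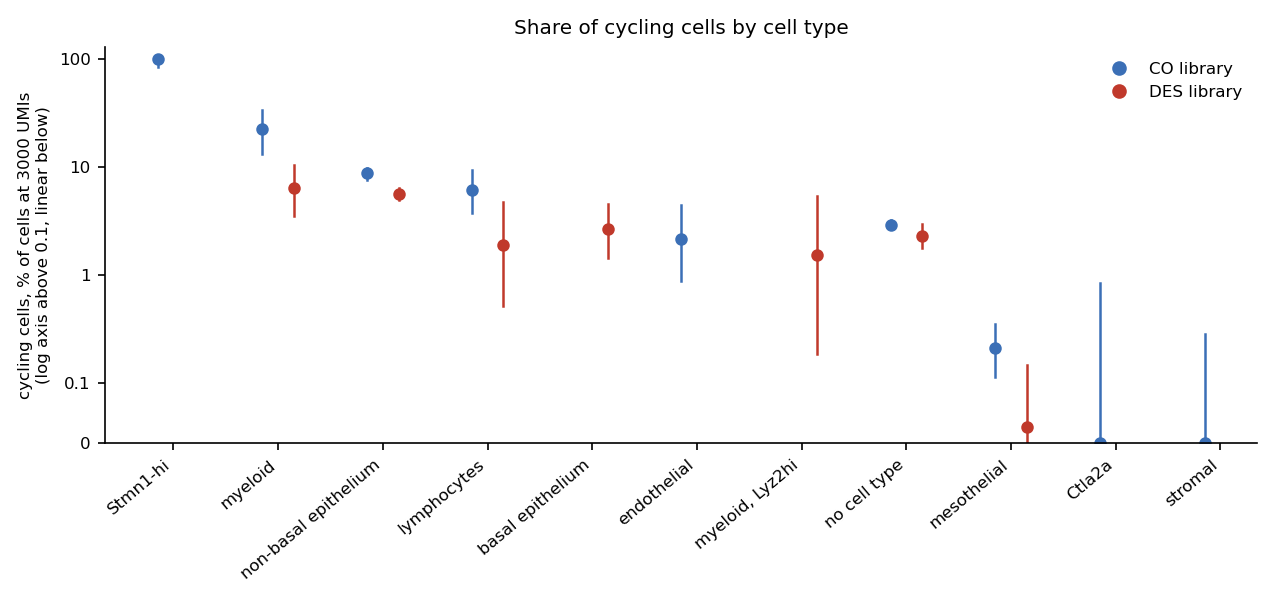
Share of cells called cycling in each cell type (vertical axis, % of cells with at least 3000 UMIs, log above 0.1 and linear below) in the CO library (blue) and the DES library (red); bars are exact binomial 95% intervals and types with under 20 cells at that depth are left out. The CO point is above the DES point in non-basal epithelium (8.74% and 5.66%), myeloid cells and lymphocytes, and stroma and mesothelium lie near 0.

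The genes behaved as cycle markers in both libraries. After thinning, 208 CO and 285 DES epithelial cells held a UMI of Top2a, the topoisomerase that untangles chromosomes, or of Mki67, which codes for the Ki-67 antigen of dividing cells. The other 22 G2/M genes were between 5.32 and 56.6 times higher in these cells than in the others in CO (median 16.1) and between 8.18 and 52.5 times higher in DES (median 17.2). The 15 S genes showed smaller ratios, with medians of 4.66 in CO and 2.96 in DES. Mcm7 was the S gene least tied to these markers in DES (1.72 times), with 42.8 CPM in thinned cells that held neither marker. Rrm2, the regulatory subunit of ribonucleotide reductase, was the S gene most tied to them there (16.1 times). The cells share depth and library, so these ratios are descriptions.

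In the non-basal epithelium the 2 groups differed in opposite directions. The 24 G2/M genes together stood at 361 CPM in CO and 255 CPM in DES (ratio 0.707, 0.697 to 0.718). The 15 S genes stood at 168.5 CPM in CO and 296 CPM in DES (ratio 1.76, 1.72 to 1.79), and Stmn1 at 61.0 and 124 CPM (2.03, 1.97 to 2.10). The median ratio of the 14148 genes with at least 50 UMIs in either library was 1.11 (0.15 on the log2 scale), and relative to it the ratios were 0.638 for G2/M, 1.58 for S and 1.83 for Stmn1. G2/M genes were thus lower and S genes higher in the DES cells on either scale. As a mean over cells of the share of UMIs in each cell the G2/M ratio was 0.614 and the S ratio 1.76.

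S-like cells were more frequent in DES, with 336 of 4559 cells (7.37%, 6.63 to 8.17) against 38 of 2562 in CO (1.48%, 1.05 to 2.03). This call too cut a range, since 435 DES and 136 CO cells held exactly 2 S UMIs and 202 and 48 held exactly 3. The mean per thinned cell was 0.840 S UMIs in DES and 0.495 in CO, and 0.585 and 0.918 G2/M UMIs. A share of cells above a fixed cut therefore moves with the general level of these genes, and no phase of the cycle was read from it.

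Among the S genes Mcm7, Gins2, Mcm6, Mcm5 and Ccne2 showed the largest ratios, while other genes of the replicative helicase and its loading lay lower. Mcm7 stood at 14.96 CPM in CO and 41.5 CPM in DES (ratio 2.78, 2.61 to 2.96), and Mcm6 at 19.6 and 45.5 CPM (2.33, 2.20 to 2.46). Mcm5 stood at 8.52 and 18.4 CPM (2.16, 1.99 to 2.36). The other helicase subunits Mcm2, Mcm3 and Mcm4 lay between 1.40 and 1.75. Gins2, a subunit of the complex that activates the helicase, stood at 5.65 CPM in CO and 14.7 CPM in DES (2.61, 2.36 to 2.89). Cdc45, the third part of the active helicase, had a ratio of 1.62, and Cdc6, which loads the MCM ring, 1.38. Ccne2, one of the E cyclins that start S phase, rested on few UMIs, 80 in CO and 344 in DES (2.07, 1.62 to 2.67), and its paralogue Ccne1 had a ratio of 1.09 with an interval that includes 1 (0.900 to 1.32). Pcna, the sliding clamp of the polymerases, had a ratio of 1.97. Of the genes for nucleotide supply, Tyms (thymidylate synthase) had 1.69 and Rrm1 1.137, while Rrm2 was lower in DES (9.47 and 7.64 CPM, 0.807, 0.737 to 0.885). Of all 15 S genes, 14 had a ratio above 1.

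Among the G2/M genes Hmmr, Tpx2, Bub1, Cenpe and Cenpa showed the smallest ratios. Hmmr, which binds spindle microtubules, stood at 12.1 CPM in CO and 4.602 CPM in DES (0.380, 0.345 to 0.419), and Tpx2, a spindle assembly factor that activates Aurora A, at 15.3 and 7.35 CPM (0.481). Bub1, a kinase of the spindle checkpoint, stood at 4.51 and 2.34 CPM (0.520). Cenpe, a kinetochore motor, and Cenpa, the histone H3 variant of centromeres, had ratios of 0.538 and 0.543, Cenpa at 29.8 and 16.2 CPM. The cytokinesis motor Kif23 (0.548), the checkpoint kinase Bub1b (0.564), the polo-like kinase Plk1 (0.583) and the cyclins Ccna2 (0.563), Ccnb2 (0.615) and Ccnb1 (0.667) were also lower in DES. Mki67 stood at 12.3 and 8.08 CPM (0.655, 0.603 to 0.713) and Top2a at 35.0 and 31.4 CPM (0.897, 0.856 to 0.939). The genes of mitotic exit Ube2c and Cdc20, an enzyme and an activator of the anaphase-promoting complex, had ratios of 0.726 and 0.675. Not all kinases took part. Cdk1, the mitotic kinase, was at 18.02 and 18.2 CPM (1.01, 0.948 to 1.08), Aurka at 1.11 (0.966 to 1.28) and Aurkb, the kinase of the chromosomal passenger complex, at 1.31 (1.135 to 1.51). These 3 were the only G2/M genes of 24 with a ratio above 1. The rest, Foxm1 (a transcription factor of G2/M genes), Cenpf, Birc5 (survivin), Kif11, Kif20a and Nusap1, lay between 0.658 and 0.981.

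At a threshold of 2-fold, 5 of 15 S genes and 0 of 24 G2/M genes were higher in DES, against 15.8% of all genes. In the other direction, 0 S genes and 2 G2/M genes (Hmmr and Tpx2) were lower, against 10.3% of all genes. The median ratio was 0.663 over the G2/M genes and 1.69 over the S genes.

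**Figure D2:**
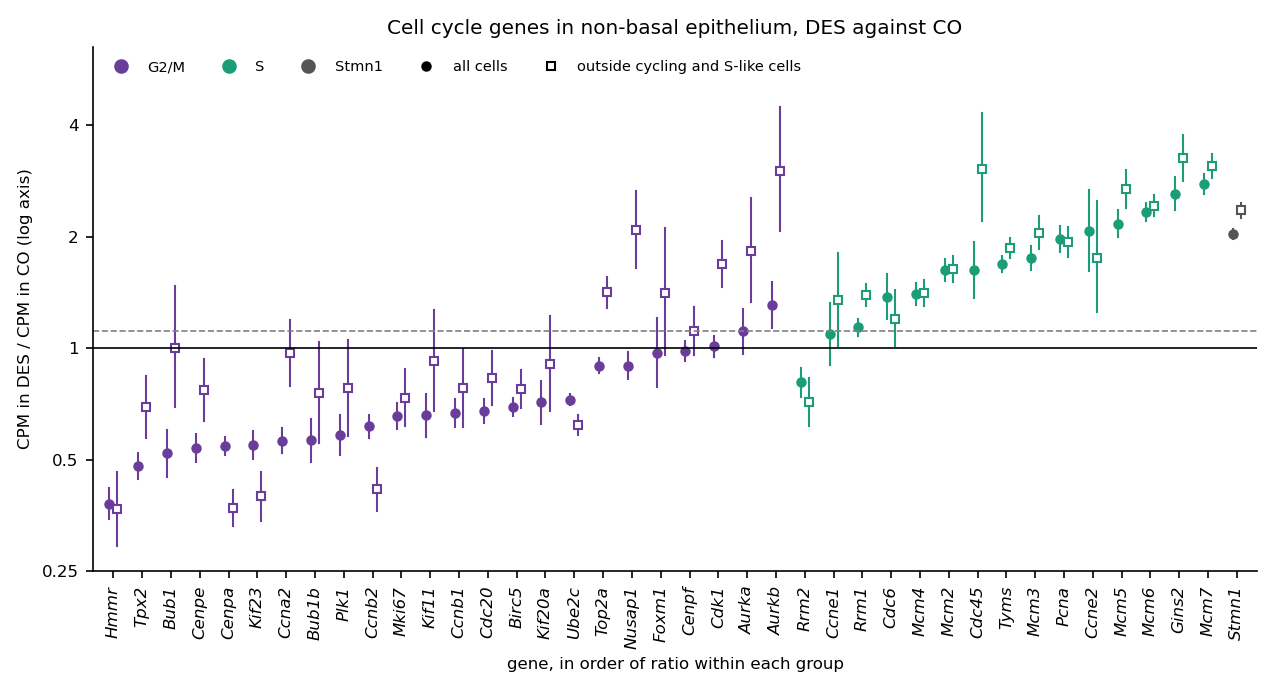
Ratio of CPM in DES to CPM in CO (vertical axis, log) for each of the 40 genes in non-basal epithelium, with 95% counting intervals; filled circles are all cells, open squares are cells outside the cycling and S-like calls, and the dashed line is the median of all genes (1.11). Most G2/M genes lie below 1 and 14 of 15 S genes above it, and 8 G2/M genes lie above 1 in the open squares: Cdk1, Aurka and Aurkb, which also do so in the filled circles, and Top2a, Nusap1, Foxm1, Cenpf and Bub1 (1.002), which do not.

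The S gene difference was found mainly outside the cells called cycling. Outside the cycling and S-like cells (2300 CO and 3965 DES cells) the S genes stood at 118 CPM in CO and 232 CPM in DES (ratio 1.96, 1.91 to 2.01), and Stmn1 at 31.0 and 73.1 CPM (2.36, 2.25 to 2.47). Within the cycling cells (224 and 258) the S genes stood at 493 and 516 CPM (1.05, 1.01 to 1.09), and Stmn1 at 283 and 495 CPM (1.75). The DES excess of S transcripts therefore lay in cells with few or no G2/M transcripts, and that of Stmn1 in both. Mcm7 showed this pattern, with 11.9 and 36.9 CPM outside (3.11) and 32.5 and 49.1 CPM in cycling cells (1.51). Gins2 had ratios of 3.26 outside and 1.25 in cycling cells, and Mcm5 2.69 and 1.03. Ccne2 had the largest ratio of the S genes in cycling cells (2.82, 1.73 to 4.83). Outside these cells 6 S genes and 2 G2/M genes were at least 2-fold higher in DES, against 15.9% of 13809 genes, and 0 S genes and 4 G2/M genes were at least 2-fold lower, against 10.3%. These cells were chosen by low counts of the same genes, so their levels describe what the call left behind.

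G2/M genes differed among themselves outside the cycling cells. As a group they stood at 97.8 CPM in CO and 75.9 CPM in DES (0.776, 0.753 to 0.8005). Hmmr (0.368), Cenpa (11.2 and 4.14 CPM, 0.370), Kif23 (0.398) and the B cyclin Ccnb2 (0.415) were the 4 that were lower by 2-fold or more. Aurkb (3.01, from 33 CO and 198 DES UMIs) and Nusap1, a microtubule-bundling protein (2.08), were the 2 that were higher. Top2a stood at 8.27 CPM in CO and 11.7 CPM in DES (1.42, 1.29 to 1.56) there, but at 235 and 202 CPM (0.859, 0.812 to 0.910) in cycling cells. Mki67 was lower in DES in both, at 0.735 outside and 0.752 within. These transcripts thus did not fall or rise as a block. In cycling cells the G2/M genes stood at 2411 CPM in CO and 1993 CPM in DES (0.826), with Hmmr (0.472) the 1 gene of 24 lower by 2-fold.

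Other genes of the cycle, taken from lists of regulators, further replication genes and further mitosis genes, were read in the same cells. All 26 further replication genes had a ratio above 1 (median 1.82), and 12 were at least 2-fold higher. Of 38 further mitosis genes found, 2 were higher and 3 lower by 2-fold (median 0.820), and of 38 regulators 5 were higher and 2 lower (median 1.203). Over all genes 15.8% were higher and 10.3% lower by 2-fold, with a median of 1.11, so the counts of mitosis genes and regulators were not above those shares. Outside the cycling cells the G1 regulators with at least 20 CPM and a 2-fold difference were Ccnd1, Cdk6 and Cdkn2b. Ccnd1, a D cyclin that acts in the G1 phase, stood at 172 CPM in CO and 77.8 CPM in DES (0.453), and Cdk6, a kinase partner of D cyclins, at 19.9 and 48.0 CPM (2.41). Cdkn2b, an inhibitor of that kinase, stood at 23.8 and 10.6 CPM (0.444).

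Within the CO epithelium the 24 G2/M genes were concentrated in clusters 14 and 4, which the study named glandular and luminal progenitors. Since the authors built the clusters from these counts, levels by cluster are descriptions. CO cluster 14 (28 cells) held 3140 CPM of G2/M genes, 780 CPM of S genes and 476 CPM of Stmn1, and 27 of its 28 cells were called cycling. CO cluster 4 (187 cells) held 2386, 516 and 274 CPM, with 143 of 185 cells cycling. Together they held 170 of the 224 cycling cells (75.9%). The other 13 clusters lay between 61.4 and 187 CPM of G2/M genes. Of the 24 G2/M genes 18 were highest in cluster 14 and 6 in cluster 4, and of the 15 S genes 13 and 2. Top2a stood at 370 CPM in cluster 14, 224 CPM in cluster 4 and a median of 11.5 CPM over the 15 clusters, and Mki67 at 116, 78.3 and 4.07 CPM. CO cluster 12 (71 cells), the study's proposed stem cells, held 187 CPM of G2/M genes but 308 CPM of S genes, next to clusters 14 and 4, with 2 of 71 cells cycling and 6 S-like. The 2 groups thus had the same leading clusters in CO.

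In the DES epithelium the 2 groups were highest in different clusters. DES cluster 6 (260 cells), named cycling or progenitor cells by the study, held 1342 CPM of G2/M genes and 345 CPM of S genes, with 140 of 260 cells cycling, and all 24 G2/M genes were highest there. DES cluster 4 (492 cells) held 304 CPM of G2/M genes but 626 CPM of S genes, and 14 of 15 S genes were highest there, the exception being Rrm2. The second-highest cluster for 22 of the 24 G2/M genes was DES cluster 9 (190 cells), which held 563 CPM of G2/M genes, 305 CPM of S genes and 20 cycling cells. In cluster 4, 58 of 492 cells were cycling and 161 (32.7%) S-like. Clusters 6 and 4 were deep, with medians of 65030.5 and 51066.5 UMIs per cell against 24663.5 over the non-basal epithelium. Together they held 198 of the 258 cycling cells (76.7%). Mcm6 stood at 96.3 CPM in cluster 4 and 39.3 CPM in cluster 6, and Top2a at 54.9 and 133 CPM. S genes were also spread more evenly over the DES clusters, with a median of 294 CPM over 16 clusters against 118 CPM over the 15 CO clusters. The cluster median of Mcm7 was 38.4 CPM in DES and 12.4 CPM in CO, and that of Mcm6 41.3 and 16.4 CPM. In DES cluster 13 (123 cells) the S genes reached 400 CPM with 60.7 CPM of G2/M genes and 0 of 123 cells cycling, where 3 cells would be 2.44% and the exact interval reaches 2.95%. DES cluster 5 (295 cells), the study's proposed cancer cells, held 97.5 CPM of G2/M genes and 177 CPM of S genes, and 9 of 290 cells were cycling (3.10%, 1.43 to 5.81). Top2a stood at 10.4 CPM and Mki67 at 3.16 CPM in these cells, below the levels of the whole non-basal epithelium. Against the medians over the 16 DES clusters, Top2a was lower (median 13.9 CPM) and Mki67 higher (median 2.71 CPM). The G2/M sum and the cycling share of cluster 5 also lay above the cluster medians, which were 88.1 CPM and 1.93%. DES cluster 10 was shallow, with a median of 6343.5 UMIs.

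**Figure D3:**
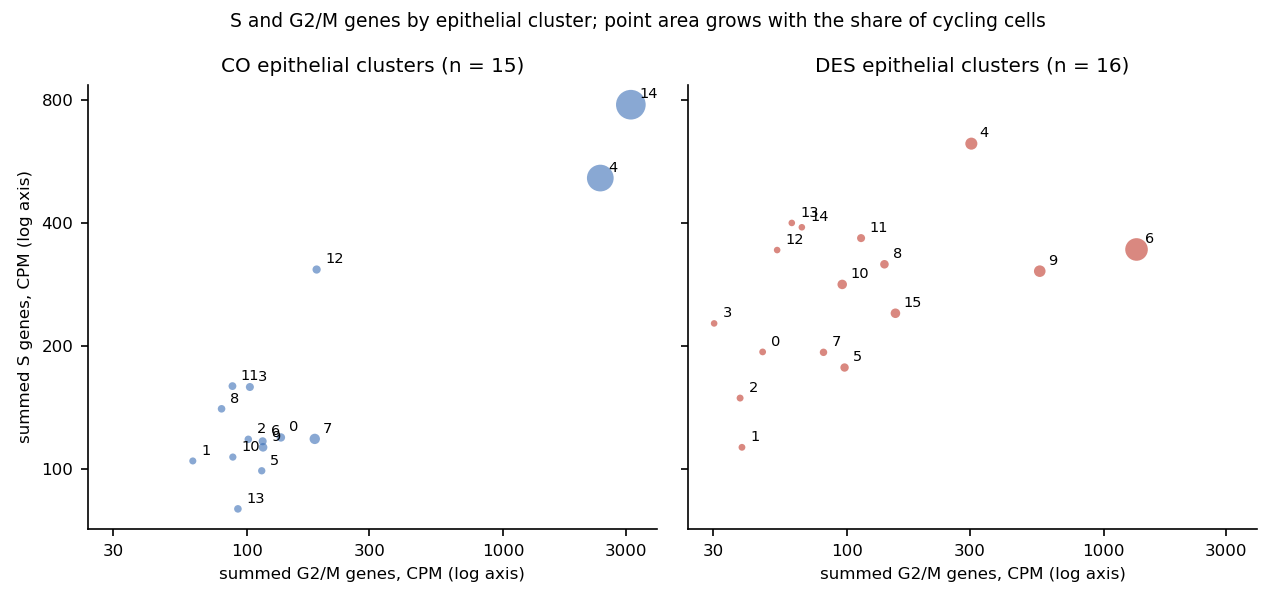
Summed S genes (vertical axis, CPM, log) against summed G2/M genes (horizontal axis, CPM, log) for the 15 CO and 16 DES epithelial clusters, numbered as by the authors; point area grows with the share of cycling cells. CO clusters 14 and 4 lead on both axes, while DES cluster 6 leads on G2/M genes and DES cluster 4 on S genes.

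Basal cells, which were counted in the DES library as epithelial cells in which Krt14 and Trp63 each had over 1 UMI (483 cells), carried G2/M transcripts in few cells. Their G2/M level of 269 CPM was close to that of the non-basal DES epithelium (255 CPM), but 13 of 483 cells were called cycling (2.69%, 1.44 to 4.56) against 5.66%. These 13 cells had a median of 18 G2/M UMIs after thinning, against 5.5 in cycling non-basal cells. Their S level (169 CPM) and Stmn1 level (75.1 CPM) lay below those of the non-basal cells. Of the 2 clusters of the integrated epithelial cells of both libraries that the study named basal, cluster 8 (351 DES cells) held 412 CPM of G2/M genes and cluster 11 (257 DES cells) 39.8 CPM. Basal cells were shallower, with a median of 16093 UMIs.

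In the sections the G2/M genes were lower in DES than in CO, while most S genes were not. The 24 G2/M genes stood at 238 and 126 CPM in the CO sections (A, then B) and at 103 and 78.5 in the DES sections. The 15 S genes stood at 204, 173, 275 and 231, and Stmn1 at 47.2, 47.0, 35.2 and 28.3. In CPM the median of all 14098 tested genes was 1.15-fold higher in DES (0.20 on the log2 scale), so groups were compared after TMM scaling, which takes this shift out. TMM-scaled G2/M sums were 260 and 133 in CO and 93.6 and 74.8 in the DES sections (ratio 0.429, groups apart), and S sums 223, 183, 250 and 220 (1.16, groups overlapping). Stmn1 stood at 51.5, 49.7, 32.0 and 27.0 (0.583, groups apart). With 2 sections per group an exact two-sided permutation test cannot give a p below 0.333, and G2/M sums gave that value. Fewer cycling cells and less of these transcripts per cell cannot be told apart in sections. CO A stood above the other 3 sections in G2/M genes, and 59.0% of its spots held a G2/M UMI against 39.6% of those in CO B and 27.2% and 27.0% of those in the DES sections, at median depths of 6656, 4862.5, 4116 and 5334 UMIs per spot.

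The makeup of the sections differed along with these sums. Muscle markers summed to 13345 and 14168 CPM in CO and 3077 and 3458 in DES, and 5 of 5 fell in DES. Basal markers summed to 3.36 and 160 in CO and 9526 and 5644 in DES, stromal markers to 1817 and 1483 against 987 and 610, and myeloid markers to 334 and 677 against 2060 and 1153. Epithelial markers lay between 4694 and 5886 in all 4 sections. Their part in the difference of the cell cycle genes was not tested. CO B contained a tissue fold and clusters of DES B were harder to identify, according to the study.

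Whether a gene of the set passed an adjusted p of 0.05 between whole sections depended on the test. edgeR's quasi-likelihood test called 0 of 38 genes tested, against 5.3% of all genes. Of the 38, 13 (11 G2/M genes, Pcna and Stmn1) had an unadjusted edgeR p under 0.05, against 3438 of all 14098 genes. DESeq2 called 4, namely Cenpa, Mki67, Ube2c and Stmn1, against 1791 of all 14098 genes. All 23 G2/M genes tested had a log2 fold change below 0, with a median of -1.25 against -0.0052 for all genes, and 12 of 14 S genes one above 0, with a median of 0.14. Bub1 and Ccne2 were too low to be tested. In 20 of the 23 G2/M genes both DES sections lay below both CO sections after scaling, against 27.8% of all genes, the exceptions being Top2a, Aurka and Kif23. In 3 of 14 S genes (Mcm6, Pcna and Gins2) both DES sections lay above both CO sections, against 28.6% of all genes. Without CO A, 22 of 23 G2/M genes remained below 0 and their median was -0.66. Without CO B or without DES A, 7 of 15 S genes were above 0.

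Of the 23 G2/M genes tested, Cenpe (-1.69), Hmmr (-1.63) and Cenpa had the lowest log2 fold changes between whole sections. Cenpa stood at 22.2 and 15.05 CPM in CO and 7.46 and 7.19 in the DES sections. Both DES sections lay below both CO sections, with a log2 fold change of -1.56 (SE 0.29, edgeR adjusted p = 0.0524). Mki67 stood at 19.5, 12.2, 8.99 and 6.07 in the same order (-1.30, SE 0.35, edgeR adjusted p = 0.110), and Ube2c at 32.2, 13.96, 10.6 and 9.41. Hmmr, the G2/M gene with the smallest ratio in single cells, stood at 2.16, 1.54, 0.658 and 0.709. Top2a stood at 15.99 and 6.89 in CO and 8.77 and 5.77 in the DES sections, so that its groups overlapped (-0.88, SE 0.49, edgeR adjusted p = 0.351). Of the S genes Pcna stood at 12.6 and 11.4 in CO and 29.0 and 22.1 in DES (0.88, SE 0.22, edgeR adjusted p = 0.0955). Mcm6 stood at 30.1 and 24.7 in CO and 38.5 and 39.3 in DES, whereas Mcm7, the S gene with the largest ratio in single cells, stood at 31.4, 51.5, 54.0 and 46.2 with overlapping groups.

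A few regulators of the cycle passed the threshold between whole sections. Of 37 regulators tested, 4 rose by the edgeR test and 0 fell, against 5.3% of all genes called in either direction, and 18 lay above and 19 below 0 (median -0.0061). Cdkn2a, whose products block cyclin D kinases and MDM2, stood at 2.48 and 0.453 CPM in CO and 29.7 and 29.96 in DES (log2 fold change 4.09, SE 0.68, edgeR adjusted p = 0.0429). Cdkn2b stood at 19.0 and 12.8 in CO and 58.6 and 51.1 in DES (1.57). Ccnd2, a D cyclin, stood at 11.8 and 7.70 against 35.2 and 33.0 (1.59), and Cdk6 at 13.99 and 17.9 against 47.8 and 40.2 (1.25). The groups were apart in all 4. After TMM scaling both DES sections lay above both CO sections in 12 of 37 regulators, against 28.6% of all genes. They lay below in 10 of 37, against 27.8%, so neither count stood out from all genes. Cdk6 was higher in DES in single cells too, but in non-basal epithelium Cdkn2b was lower in DES and Cdkn2a had a ratio of 0.799 (30.3 and 24.2 CPM outside cycling cells). Basal markers were also higher in the DES sections, with 0 of 3 past the edgeR threshold and 3 of 3 at an unadjusted p under 0.05. Their part in the regulators was not tested, and the basal cells were not part of these single-cell values. In the DES basal cells Cdkn2a stood at 141 CPM, Cdkn2b at 36.9, Ccnd2 at 246 and Cdk6 at 67.6, against 22.8, 10.2, 52.6 and 47.0 CPM in the whole DES non-basal epithelium. CO cluster 12 held 169, 32.8, 355 and 25.5 CPM of the same genes, near or above the basal levels except for Cdk6, which was lower there. Against the same 5.3%, 1 of 26 further replication genes rose (Chaf1b, a histone chaperone subunit, 1.69, SE 0.26), and 0 of 35 further mitosis genes tested passed, 30 of them with a value below 0 (median -0.997).

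**Figure D4:**
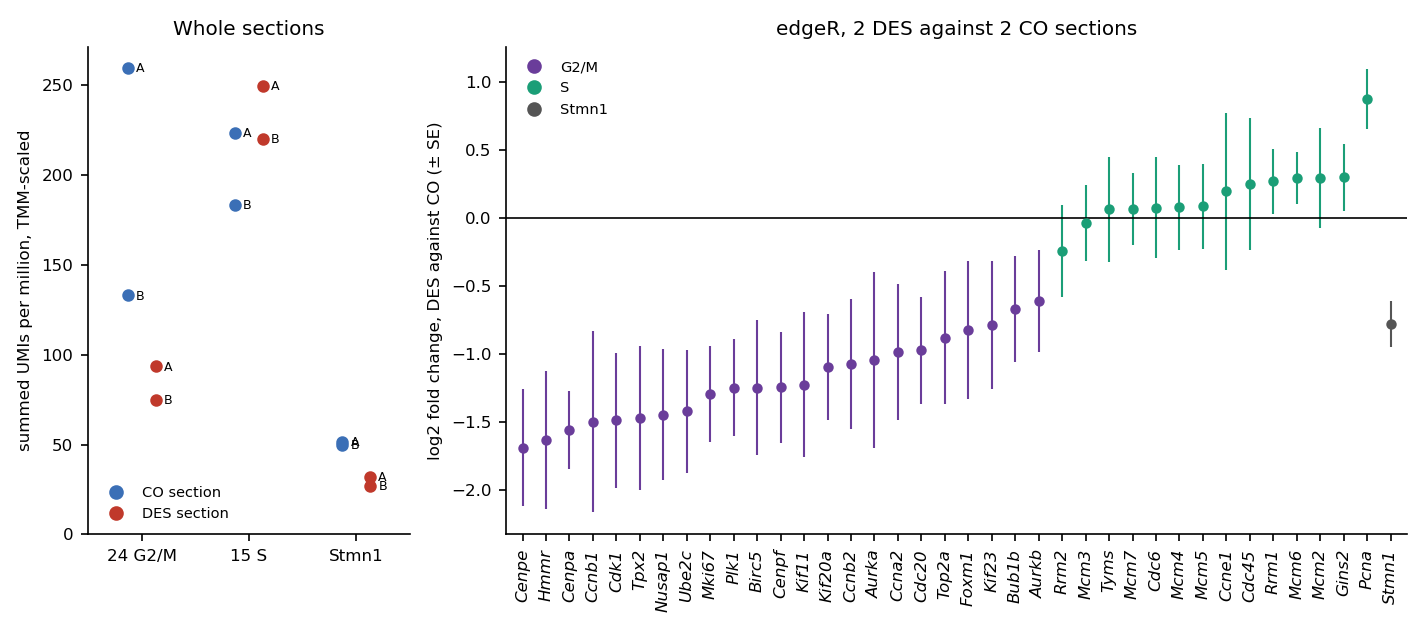
Left, summed levels of 24 G2/M genes, 15 S genes and Stmn1 in each section (vertical axis, TMM-scaled CPM; 2 CO sections in blue, 2 DES sections in red, letters name the section). Right, edgeR log2 fold change of DES against CO with SE for the 38 genes tested; all 23 G2/M genes lie below 0 and 12 of 14 S genes above it, and no gene passed the adjusted threshold of the edgeR test.

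Restricting the comparison to epithelium-rich spots, the 15% of spots in each section with the highest epithelial marker score, left the G2/M difference dependent on 1 section. TMM-scaled G2/M sums were 301 and 97.1 in CO and 107 and 65.3 in the DES sections, and CO B fell between the DES sections. edgeR called 0 of 28 genes, against 6.54% of all genes. An unadjusted edgeR p under 0.05 was found for 5 of the 28, against 2913 of all 11533 genes. DESeq2 called 2 (Cenpa and Ube2c), against 1144 of all 11533 genes. All 16 G2/M genes tested had a value below 0 (median -0.94), but without CO A 7 of 12 were above 0 (median 0.18). Both DES sections lay below both CO sections in 5 of 16 G2/M genes (Tpx2, Ube2c, Cenpa, Plk1 and Mki67), against 27.9% of all genes, and above them in 2 of 11 S genes (Pcna and Gins2), against 29.4%. Cenpa stood at 26.7, 12.4, 6.36 and 6.495 CPM (log2 fold change -1.91, SE 0.48, edgeR adjusted p = 0.0745). Top2a stood at 16.2, 4.33, 13.998 and 4.33, with section A of each group high and section B low (-0.50, SE 0.78, edgeR adjusted p = 0.741). Mcm6 stood at 42.7, 41.8, 47.5 and 43.3 CPM, DES above CO, but after TMM scaling both DES sections lay below both CO sections, since on the unscaled values the median of all genes was 1.219-fold higher in DES. Of 31 regulators tested, 2 rose and 0 fell by the edgeR test, against 6.54% of all genes called in either direction. They were Cdk6 (1.98, SE 0.26, edgeR adjusted p = 0.0206) and Cdkn2a (3.88, SE 0.71, edgeR adjusted p = 0.0381). Basal markers in these spots summed to 4.19 and 147 CPM in CO and 8846 and 5680 in DES, muscle markers to 283, 219, 413 and 705. Myeloid markers summed to 141 and 232 in CO and 1927 and 778 in DES, and stromal markers to 862 and 548 against 455 and 290. The part of these cell types in the differences was not tested.

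Stromal spots, taken as the clusters the study named stroma, showed no gene of the set past the threshold. G2/M sums after TMM scaling were 162 and 193 in CO and 84.8 and 84.7 in the DES sections, so that the groups were apart. S sums were 218, 299, 204 and 127, also apart after scaling, while in CPM they overlapped (217, 293, 221 and 121). edgeR called 0 of 13 genes tested, against 1.47% of all genes. An unadjusted edgeR p under 0.05 was found for 1 (Stmn1), against 1194 of all 8914 genes. DESeq2 called 0, against 193 of all 8914 genes. Both DES sections lay below both CO sections in 3 of 4 G2/M genes (Cenpa, Mki67 and Cdk1), in 3 of 8 S genes (Mcm4, Mcm5 and Mcm7) and in Stmn1, against 20.9% of all genes. Stmn1 stood at 53.7 and 86.7 CPM in CO and 36.4 and 37.5 in DES (-1.01, SE 0.38, edgeR adjusted p = 0.281). Muscle markers in these spots summed to 888 and 700 CPM in CO and 2705 and 8369 in DES, and basal markers to 0 and 89.97 against 7058 and 1998. Epithelial markers summed to 4004 and 3566 against 3052 and 1902, and myeloid markers to 709 and 1278 against 2254 and 1241. Stromal markers themselves summed to 3814 and 2259 against 2550 and 1807. Their part in these differences was not tested. Without CO B, 1 of 2 G2/M genes tested was above 0.

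Within the CO sections, Mcm6 was the 1 gene of the set called higher in epithelium-rich spots by the edgeR test with TMM scaling. Of 13622 genes this fit called 3657 higher and 3323 lower. Other settings called more members, counted in either direction (3 with DESeq2 size factors, 4 with genes from 1 UMI, 3 each in the top 10% and 25% of spots). The share of all genes called at those settings is not given, so these counts are not read as results about the set. Mcm6 stood at 42.7 CPM in epithelium-rich and 24.5 in other spots of CO A, and at 41.8 and 17.7 in CO B. edgeR with the section as a block called it higher in epithelium-rich CO spots (log2 1.08, SE 0.16, edgeR adjusted p = 0.000221), 1 of 39 genes of the set against 26.8% of all genes higher there. In DES A it stood at 47.5 and 35.4 and in DES B at 43.3 and 38.0 (0.25, SE 0.17, edgeR adjusted p = 0.406). In the DES sections 0 of 39 genes passed, against 11.2% of all genes. An unadjusted edgeR p under 0.05 was found for 1 (Aurka), against 3338 of all 13622 genes. DESeq2 called 0, against 770 of all 13622 genes. The difference between the 2 enrichments was called for Mcm6 (-0.83, SE 0.23, edgeR adjusted p = 0.0384), 1 of 39 genes against 13.1% of all genes. It was not called by DESeq2 (adjusted p = 0.307) or without DES A or without DES B. In CPM the level in other spots was higher in DES (35.4 and 38.0) than in CO (17.7 and 24.5), and that in epithelium-rich spots was also higher in CPM but lower after TMM scaling. The other spots also differed in makeup, with epithelial markers at 4134 and 3102 in CO and 4561 and 4922 in DES and muscle markers at 19089 and 19944 against 4006 and 4297, and 7 of 9 epithelial markers had a lower enrichment in DES by the same test. Their part in the Mcm6 difference was not tested.

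The 24 G2/M genes together did not follow the epithelium in the same way in every section. They were higher in epithelium-rich than in other spots in CO A (ratio 1.198, 1.11 to 1.29) and DES A (1.26, 1.10 to 1.45), lower in CO B (0.624, 0.546 to 0.712), and within counting error of 1 in DES B (0.878, 0.735 to 1.05). S genes gave 1.16, 1.01, 1.25 and 1.15 in CO A, CO B, DES A and DES B. Of the 10 spot clusters in each section, the highest G2/M level was in cluster 1 of CO A (240 spots, 291 CPM), which was also its most epithelial cluster. In CO B it was in cluster 3 (222 spots, 231 CPM), which ranked 8 of 10 by epithelial markers. In DES B it was in cluster 10 (44 spots, 131 CPM), which ranked 9, and in DES A in a cluster of 2 spots. In every section the counting interval of the highest cluster overlapped that of the next. The next in CO A was cluster 6 (266 CPM, 227 to 309, against 276 to 307 in cluster 1), which ranked 9 by epithelial markers. That in DES B was cluster 2 (103 CPM, 91.7 to 114, against 84.0 to 195 in cluster 10), which ranked 2. Spots with Olfm4, a gene the study tied to the cancer, made up 209 of 236 epithelium-rich spots in DES A and 200 of 204 in DES B. G2/M genes stood at 121 CPM (107 to 137) in the Olfm4 spots of DES A and 130 (85.8 to 190) in its 27 other epithelium-rich spots, within counting error of each other, and at 71.4 in the Olfm4 spots of DES B. S genes were lower in the Olfm4 spots of DES A (304 CPM, 281 to 328) than in its other epithelium-rich spots (516, 423 to 624), which were shallower (median 6337 against 9144 UMIs).

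**Figure D5:**
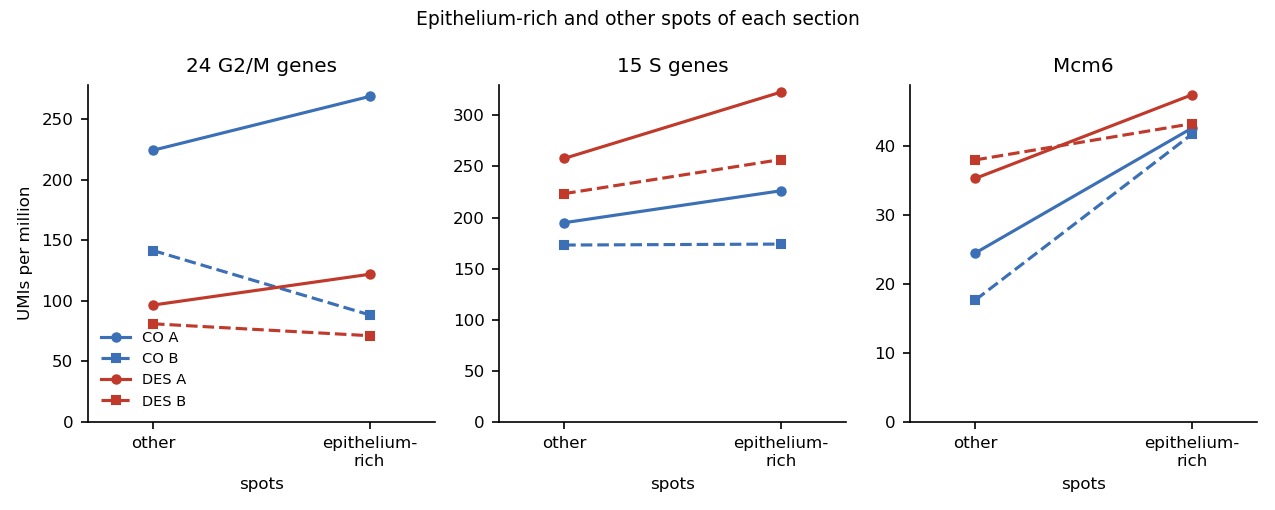
Levels in other and epithelium-rich spots (vertical axis, CPM) for the 24 G2/M genes, the 15 S genes and Mcm6, 1 line per section (CO blue, DES red; A solid, B dashed). G2/M lines rise in CO A and DES A and fall in CO B, and Mcm6 rises most steeply in the 2 CO sections, where its level in other spots is lower.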

How the data were processed

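Uteri of corn oil and DES mice were profiled as 1 single-cell library per group and as 2 spatial sections per group. The deposited tables hold raw UMI counts per gene and cell or spot. Per the labels and the study's methods the authors used bcl2fastq 2.20.0.422, Cell Ranger 3.0.1 and Space Ranger 1.2.2 with mm10, removed empty droplets and doublets before deposit, and named cell types and clusters with Seurat, and these names were kept. Reads were taken near transcript 3′ ends, so levels are comparable for 1 gene across samples and not between genes. In the metadata 350 entries had no counts and were not used.

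The members and gene lists were chosen with earlier results of these data known. UMIs were summed per cell group or section. Cycling calls used cells thinned to 3000 UMIs (left out as shallower: 21 CO and 49 DES epithelial cells). Single-cell ratios used genes with at least 50 UMIs in either library. Sections were compared with edgeR 4.0.16 (TMM, filterByExpr, quasi-likelihood test, Benjamini-Hochberg over all genes tested, 0.05) in R 4.3.3, which was checked on simulated data, with DESeq2 1.42.0 as the alternative. Python 3.11.15 with pandas 2.3.3, numpy 2.4.6 and scipy 1.17.1 gave the exact intervals. Sections of a group came from different mice.

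Named genes were Top2a and Mki67 throughout, every member past a threshold, the 5 largest and 5 smallest single-cell ratios, and regulators past a threshold or with at least 20 CPM and a 2-fold difference. Other members are named to complete their role group, after their values were seen. Alternatives were other tests, size factors, filters, spot shares, cycling cuts and each section left out. Promoters of Mcm4, Tpx2, Gins2, Foxm1, Ccne2, Stmn1, Aurkb, Kif20a and Ccna2 were not used here.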

Additional observations from a re-analysis of the deposited data

Results flagged for a closer look

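The enrichment of Mcm6 in epithelium-rich spots differed between the groups by a test of the difference itself, with a log2 difference of -0.83 (DES minus CO). It stood at 42.7 and 41.8 CPM in the epithelium-rich spots of CO A and CO B and at 24.5 and 17.7 in their other spots, against 47.5 and 43.3 and then 35.4 and 38.0 in DES A and DES B. The difference was called by edgeR but not by DESeq2 (adjusted p = 0.307), with DESeq2 size factors, in the top 10% or 25% of spots, or without DES A or DES B. Mcm6 was the 1 gene of the set called by edgeR, against 1779 of all 13622 genes (13.1%). By the same edgeR test 7 of 9 epithelial markers also had a lower enrichment in DES. Other spots held muscle markers at 19089 and 19944 CPM in CO and 4006 and 4297 in DES and epithelial markers at 4134 and 3102 against 4561 and 4922, and their part was not tested.

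Some of the cells to which the authors gave no cell type met the cycling call. The share was 2.92% in CO (431 of 14756 cells, 95% interval 2.66 to 3.21) and 2.31% in DES (62 of 2684 cells, 1.78 to 2.95). Both lay above the 0 of 1303 found in CO stromal cells and below the non-basal epithelium of the same library. The CO share was also below that of CO lymphocytes, while the DES share was above that of DES lymphocytes but within the interval of the latter. Their median depth among thinned cells was 6033 UMIs in CO and 6514.5 UMIs in DES.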

How the results depend on the processing

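The lower DES share of cycling cells and the higher DES level of S genes kept their direction under every single-cell alternative run, among them leaving out barcodes found in both libraries, which was chosen after seeing the data. The G2/M ratio was 0.614 as a mean over cells and 0.688 without Top2a and Mki67. The cycling share with at least 2 UMIs was 11.9% in CO and 8.14% in DES non-basal epithelium and 0.953% and 0.397% in CO and DES mesothelium, and with at least 5 UMIs 5.50%, 3.58% and, in CO mesothelium, 0.104%. Thinned to 5000 UMIs the epithelial shares were 11% and 7.75%. Without thinning they were 32.6% and 21.4%, with 7.45% in basal cells and 1.66% and 1.15% in CO and DES mesothelium. By Top2a or Mki67 the mesothelia gave 1.49% and 0.873%.

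Calls in the sections depended on the test and on single sections. Between whole sections DESeq2 called 4 members and edgeR with genes from 1 UMI called 1, and leaving out a section gave 0 to 13 (13 without CO B, 3 without CO A, where the lone section is assumed to vary like the others). In epithelium-rich spots the counts were 2 by DESeq2, 2 with genes from 1 UMI and 0 to 9 with a section left out (9 without CO B, 2 without CO A). In stromal spots leaving out a section gave 0 to 0. The CO enrichment gave 3 members with DESeq2 size factors, 4 with genes from 1 UMI and 3 each in the top 10% and 25% of spots. The DES enrichment gave 1 member in the top 25% of spots. The Mcm6 difference was lost with DESeq2, with its size factors and in the top 10% and 25% of spots (0 each). It was also lost without DES A or without DES B. Where no count over all genes is given, the member counts are not read as results about the set. The cause of these changes was not tested.

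No label pairs the sections by letter, and over 14098 genes the deviations of CO A and DES A were hardly correlated (-0.025). With 2 sections per group this cannot exclude a shared A to B difference in some genes. G2/M sums were higher in A in both groups (238 and 126 CPM in CO, 103 and 78.5 in DES). With the letter as a replicate block edgeR called 0 members between whole sections, 1 in epithelium-rich and 0 in stromal spots. The share of all genes called with that block is not given. Depth limits genes such as Bub1, Ccne2 and Hmmr, which had few UMIs per section.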
